A study of Mus musculus with 6 samples.

Results

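Il33 and the interleukin-1 (IL-1) family were described in isolated liver sinusoidal endothelial cells (LSECs), the fenestrated cells that line the capillaries of the liver. The members were 10 genes given by name: the ligands Il33, Il1a, Il1b and Il18, the inhibitors Il1rn, Il18bp and Il1r2, and the receptor genes Il1r1, Il1rap and Il1rl1. A member was found by its annotated gene symbol, and 9 of the 10 had a row among the 24479 genes of the array. Il1rl1 was not analysed here. Il33 was chosen with its difference between the groups known, where it had the second-smallest p of all genes (rank 2), so the levels of the members are given as a description and no test on them is read as support.

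The study compared LSECs of Lyve-1-KO mice with LSECs of Ctrl mice, to see how the loss of the hyaluronan receptor Lyve-1 changed these cells. Lyve-1-KO mice carried the constitutive allele B6.129S1-Lyve1tm1Lhua/J on a C57BL/6 background, and Ctrl mice were wild-type C57BL/6J. No treatment was given to either group. The paper gives a range of ages in weeks for its mice and does not say which ages went to the arrays. Cells were released with collagenase, enriched on a Nycodenz gradient and sorted with anti-CD146 beads, cells of 3 mice were pooled per sample, and 3 pools per group were hybridized to 1 Affymetrix MoGene-2_0-st array each. The animal methods name both littermates and purchased mice as controls, and for purchased mice origin and genotype cannot be told apart.

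IL-1 family cytokines bind a ligand-specific receptor chain, which recruits an accessory chain, and the paired intracellular domains signal through Myd88 and the Irak kinases to NF-κB and MAP kinases. Il33 and Il1a are held in the cell and act as alarm signals when cells are damaged, whereas Il1b and Il18 are made as precursors that caspase-1 cleaves in inflammasomes. In the liver, endothelial and stellate cells are known sources of Il33, and Kupffer cells, the resident macrophages, are known sources of Il1b and Il18.

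The values were log2 levels of 1 row per gene, with identical distributions on the 6 arrays (median 5.04). Arrays correlated at 0.993 to 0.996 within the groups and at 0.991 to 0.996 between them. The LSEC markers lay near the top of each array, with a mean level over 18 of 20 markers of 12.75 to 12.77 in the Lyve-1-KO pools and 12.79 in each Ctrl pool. Lyve1, the targeted gene, had levels of 12.85, 12.88 and 12.83 in Lyve-1-KO, against 12.78, 12.69 and 12.84 in Ctrl, so its signal did not fall with the label, and whether its probes lie in the deleted part is not given in the sources used here. The transcript level therefore did not check the labels. The paper reported the loss of Lyve-1 protein in Lyve-1-KO livers by immunoblot and immunofluorescence, which is evidence on the mice and not on these arrays.

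Il33 and Il1a were the members whose groups did not overlap, so the bases before their start sites are shown. The array gave 1 value per gene and could not separate the start sites of Il33, for which RefSeq lists a pair. Sequences are from RefSeq (build GRCm38.p6), 5′ to 3′ on the strand of the gene, and cover the 250 bases before each start site. Capitals mark matches to the motifs named after the sequences. The windows are chr19:29924863-29925112 (plus strand) for the first start of Il33, chr19:29945540-29945789 (plus strand) for the second, and chr2:129309973-129310222 (minus strand) for Il1a.
Il33, first start: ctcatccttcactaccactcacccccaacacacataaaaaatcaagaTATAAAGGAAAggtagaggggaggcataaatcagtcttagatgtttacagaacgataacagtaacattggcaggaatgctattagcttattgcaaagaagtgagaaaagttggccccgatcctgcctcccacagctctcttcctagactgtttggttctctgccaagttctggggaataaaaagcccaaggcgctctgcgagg
Il33, second start: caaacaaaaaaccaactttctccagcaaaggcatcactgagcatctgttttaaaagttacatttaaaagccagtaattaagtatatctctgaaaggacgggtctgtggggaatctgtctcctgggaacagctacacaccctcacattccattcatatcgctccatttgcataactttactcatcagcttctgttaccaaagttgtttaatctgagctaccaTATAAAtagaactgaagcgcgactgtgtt
Il1a: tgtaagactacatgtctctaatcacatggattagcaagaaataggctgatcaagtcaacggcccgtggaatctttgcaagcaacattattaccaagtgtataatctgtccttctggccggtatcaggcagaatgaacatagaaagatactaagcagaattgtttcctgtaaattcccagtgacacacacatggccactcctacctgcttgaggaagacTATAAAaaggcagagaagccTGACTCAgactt

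The motifs were searched on both strands, from 250 bases before to 50 bases after the start. TATAAA, the letters of the classical core promoter element, was found at -203 to -198 of the first start of Il33, at -29 to -24 of its second start and at -32 to -27 of Il1a, and 13.6% of 32851 mouse promoter windows held it. TGANTCA (AP-1) was found at -12 to -6 of Il1a and in 7.81% of all windows. AANNGAAA (the core bound by interferon regulatory factors) was found at -200 to -193 of the first start of Il33, where it overlapped the TATAAA match, and in 23.9% of all windows. The windows of Il33 and Il1a held no GGNNTTTCC (NF-κB, 5.82% of all windows), AGATAAG (read by factors of the GATA family, 3.04%) or ACCGGAAG (ETS, 2.3%). These are letter matches and not binding sites.

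Il33, the nuclear alarm cytokine, was 48.6% lower in Lyve-1-KO LSECs. Its log2 level was 8.12, 7.94 and 7.97 in the Lyve-1-KO pools, against 8.90, 8.97 and 9.03 in the Ctrl pools. Every Lyve-1-KO pool was below every Ctrl pool, and the gap between the groups was several times the spread within them. The means were 8.01 ± 0.10 in Lyve-1-KO and 8.97 ± 0.06 in Ctrl (SD, n = 3 each). The log2 fold change was -0.96 (SE 0.07, 95% interval -1.14 to -0.79), a Lyve-1-KO level of 0.514 of that in Ctrl. Leaving out each array in turn gave -1.01 to -0.93. Only 16 of the 24479 genes, Il33 included, had a log2 fold change as low or lower, and 57 had a difference of that size in either direction. Fewer cells of a type and less RNA per cell cannot be told apart in such pools.

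Levels of other cells that can carry Il33 were read beside it. The stellate cell and fibroblast list (20 of 20 markers) averaged 7.50 to 8.08 in Lyve-1-KO and 7.55 to 8.01 in Ctrl, a difference of -0.01. The mesothelium list (7 of 8 markers) averaged 5.90 to 6.21 in Lyve-1-KO and 6.03 to 6.38 in Ctrl. Groups of both lists overlapped. The mesothelium list differed by -0.15 (exact two-sided permutation p = 0.5), with 1 gene above 0 and 6 below, from -0.79 to 0.12. The venous and continuous endothelium list (20 of 20 markers) averaged 9.86 to 9.89 in Lyve-1-KO and 9.83 to 10.23 in Ctrl. Its genes went both ways, 6 above 0 and 14 below, from -0.97 to 0.97. At an unadjusted p under 0.05, 2 were higher and 4 lower (all genes, 5.87% and 5.33%). Ackr1 differed by 0.97 (SE 0.11) and Wnt9b by -0.64 (SE 0.20), and the groups of neither gene overlapped. The lymphatic endothelium list (7 of 8 markers) was lower in every Lyve-1-KO pool, at 7.02 to 7.30 against 7.36 to 7.52 in Ctrl, a difference of -0.32 with an exact two-sided permutation p of 0.1, the smallest that 3 pools against 3 allow, although 5 of the 7 genes were below 0 and their median difference was only -0.03. Among its genes Mmrn1, a secreted multimerin of endothelium and platelets, had 4.52, 5.02 and 4.65 in Lyve-1-KO and 6.41, 6.16 and 6.66 in Ctrl. Sema3d had 7.38, 7.46 and 6.75 in Lyve-1-KO and 7.88, 7.77 and 7.86 in Ctrl, a difference of -0.64 (SE 0.18). Prox1, the transcription factor that defines lymphatic endothelium, differed by -0.11. The part of stellate, mesothelial, lymphatic or venous cells in the level of Il33 was not tested.

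Il1a, the other alarm cytokine of the family, was higher in Lyve-1-KO LSECs and among the brightest signals of the array (99.3rd percentile, although signal also depends on the probes of a gene). Its log2 level was 12.22, 12.23 and 12.33 in Lyve-1-KO, against 11.84, 11.99 and 11.89 in Ctrl. All Lyve-1-KO pools lay above all Ctrl pools. The log2 fold change was 0.35 (SE 0.07, 95% interval 0.19 to 0.51), 1.27 times the Ctrl level, and stayed between 0.31 and 0.39 when each array was left out. Il33 and Il1a, which are both stored alarm signals, thus differed in opposite directions.

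**Figure D1:**
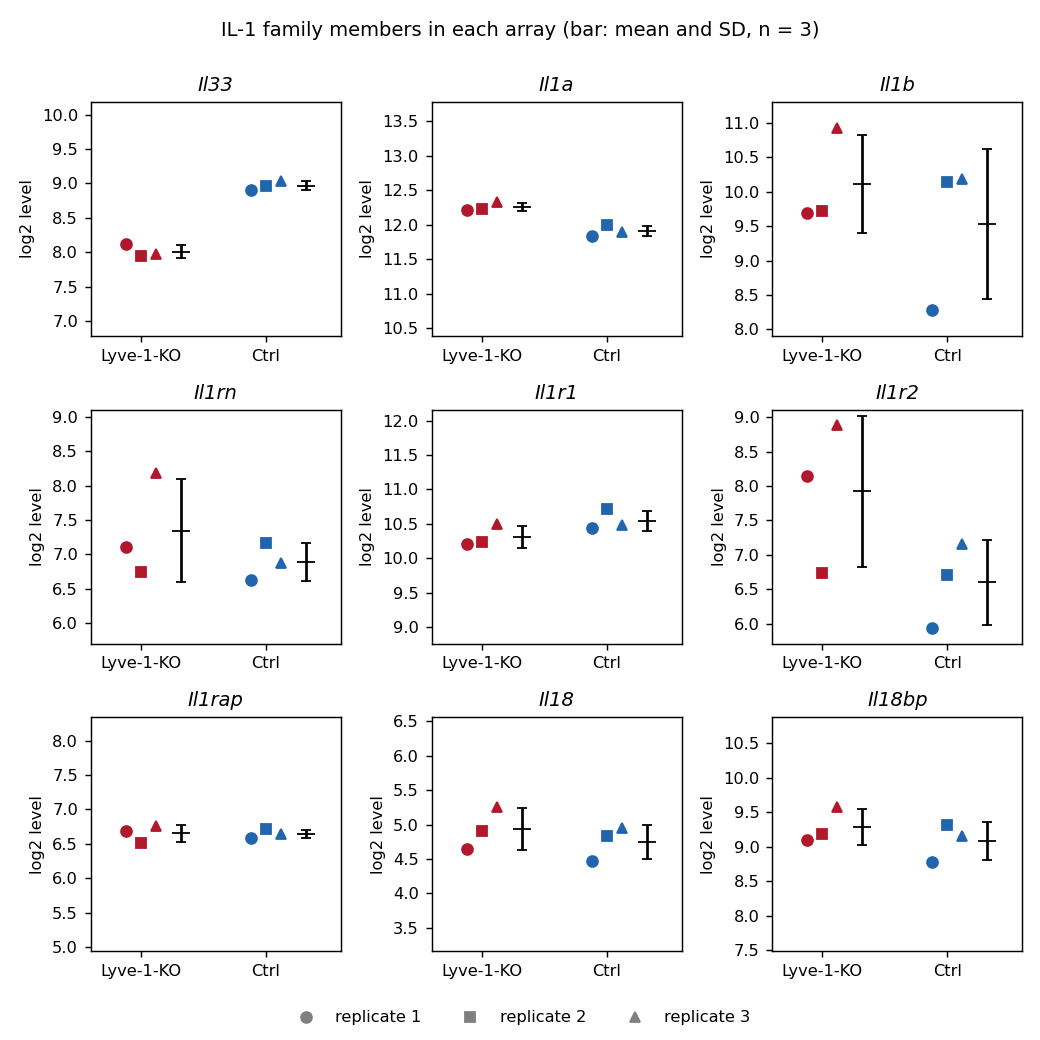
Log2 level of each of the 9 measured members on the y axis in the 3 Lyve-1-KO and the 3 Ctrl pools, 1 point per array, with a bar at the group mean and whiskers for the SD (n = 3). Il33 lies at 7.94 to 8.12 in Lyve-1-KO and 8.90 to 9.03 in Ctrl, and Il33 and Il1a are the 2 members whose groups do not overlap.

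Il1b, the secreted inflammatory ligand that needs cleavage by caspase-1, varied widely between the pools. Its log2 level was 9.69, 9.72 and 10.93 in Lyve-1-KO, against 8.28, 10.14 and 10.19 in Ctrl. The third Lyve-1-KO pool was the highest and the first Ctrl pool the lowest, and the groups overlapped. The log2 fold change of 0.58 (SE 0.58, 95% interval -0.79 to 1.95) was no larger than its error and was -0.05 without the first Ctrl pool. Il18, the other ligand activated by caspase-1, was dim, near the array median, with 4.65, 4.90 and 5.25 in Lyve-1-KO and 4.47, 4.83 and 4.95 in Ctrl. Its groups overlapped too, and the difference was 0.19 (SE 0.18, 95% interval -0.24 to 0.61).

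The natural inhibitors of the family had no lower mean in Lyve-1-KO. Il1r2, the decoy receptor that binds IL-1 without signalling, had the largest difference among the members and also a large spread. Its log2 level was 8.15, 6.73 and 8.88 in Lyve-1-KO, against 5.94, 6.71 and 7.15 in Ctrl. The second Lyve-1-KO pool lay within the range of Ctrl, and both others lay above it. The log2 fold change was 1.32 (SE 0.55, 95% interval 0.01 to 2.64), 2.50 times the Ctrl level. It was 0.84 without the third Lyve-1-KO pool and 1.91 without the second.

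Il1rn, the secreted antagonist that occupies the IL-1 receptor, had 7.11, 6.74 and 8.18 in Lyve-1-KO, against 6.63, 7.17 and 6.87 in Ctrl. A single pool, the third of Lyve-1-KO, was above all Ctrl pools. The difference was 0.45 (SE 0.36, 95% interval -0.39 to 1.30), and it was 0.03 without that pool. Il18bp, the soluble protein that neutralizes Il18, had 9.09, 9.19 and 9.58 in Lyve-1-KO and 8.78, 9.32 and 9.15 in Ctrl, a difference of 0.20 (SE 0.18, 95% interval -0.22 to 0.62) with overlapping groups.

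The signalling receptors showed small differences. Il1r1, the receptor through which Il1a and Il1b act, lay at the 95.4th percentile of the array signal and had 10.21, 10.23 and 10.50 in Lyve-1-KO, against 10.44, 10.71 and 10.48 in Ctrl. The first and second Lyve-1-KO pools lay below all Ctrl pools, and the third did not. The difference was -0.23 (SE 0.11, 95% interval -0.49 to 0.04), and -0.32 without the third Lyve-1-KO pool. Il1rap, the accessory chain shared by the receptors of Il1a, Il1b and Il33, had 6.68, 6.52 and 6.76 in Lyve-1-KO and 6.59, 6.71 and 6.64 in Ctrl. Its groups had the same mean within error, with a difference of 0.00 (SE 0.08, 95% interval -0.19 to 0.20).

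**Figure D2:**
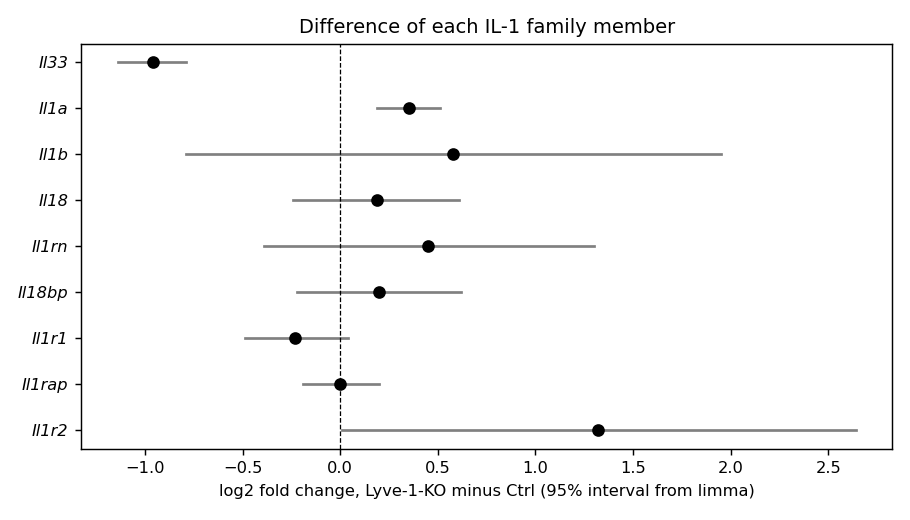
Log2 fold change (Lyve-1-KO minus Ctrl) of each member on the x axis, with the 95% interval from limma as a bar. Il33 at -0.96 and Il1a at 0.35 have short bars, whereas Il1r2 at 1.32 and Il1b at 0.58 have long ones.

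Counted over the members, 7 differences were above 0 and 2 below, and the median difference was 0.20 (0.00 over all genes). No member passed limma's adjusted p of 0.05, which 1 of the 24479 genes did (0.00409%) and 0 with the replicate number as a block, while 2741 genes (11.2%) reached an unadjusted p under 0.05. At that unadjusted p, 2 members were higher (Il1a, Il1r2) and 1 lower (Il33), where the background was 5.87% of all genes higher and 5.33% lower. Il1r2 did not keep this call without the first or the third Lyve-1-KO pool or without the first or the second Ctrl pool, nor under 3 other alternatives. Groups did not overlap in 1 member that was higher and 1 that was lower, against 8.71% and 8.73% of all genes. The members were chosen from this contrast, so nothing is read from these counts.

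The third Lyve-1-KO pool was the highest of all pools for every measured member except Il33 and Il1r1. For Il1r2 the pools ran, highest first, from the third and first Lyve-1-KO pools through the third Ctrl, second Lyve-1-KO and second Ctrl pools to the first Ctrl pool. Neutrophil markers (15 of 15 measured, 7 of them below the array median) ran alike except that the second Ctrl and second Lyve-1-KO pools changed places. Their mean level was 5.66, 5.10 and 6.50 in Lyve-1-KO and 4.98, 5.13 and 5.38 in Ctrl. The third Lyve-1-KO pool stood highest and the groups overlapped, with a difference of 0.59 (exact two-sided permutation p = 0.3) that was 0.22 without that pool. S100a9, an abundant calcium-binding protein of neutrophils, had 7.88, 6.37 and 9.64 in Lyve-1-KO and 6.22, 6.54 and 7.17 in Ctrl. Cxcr2, the neutrophil chemokine receptor, had 7.25, 6.34 and 8.46 in Lyve-1-KO and 6.29, 6.42 and 6.40 in Ctrl. Neutrophils are a known source of Il1r2 and Il1rn, and their part in these levels was not tested.

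Kupffer cell and macrophage markers also varied between the pools. Their mean level (19 of 20 measured, none below the array median) was 8.70, 9.36 and 9.70 in Lyve-1-KO and 7.70, 9.55 and 8.91 in Ctrl. The third Lyve-1-KO pool was highest and the first Ctrl pool lowest. The difference was 0.54 (exact two-sided permutation p = 0.6) and all 19 genes were above 0, but it was 0.03 without the first Ctrl pool. Il1a, Il1b, Il1rn, Il1r2, Il18, Il18bp and the mean of the neutrophil list had the same extremes, as did 4.34% of all genes. Such extremes favour genes that are higher in Lyve-1-KO, so they are not read as a link to a cell type. The part of macrophages in the levels of Il1b, Il18 and Il18bp was not tested. Markers of the cells that answer to Il33, which are ILC2, regulatory T and mast cells, were dim (14 of 18 below the array median), at 5.05 to 5.10 in Lyve-1-KO and 5.06 to 5.15 in Ctrl. Levels in sorted LSECs do not count such cells in the liver. By flow cytometry of whole tumor-free livers, the paper reported more regulatory T cells and eosinophils in Lyve-1-KO.

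**Figure D3:**
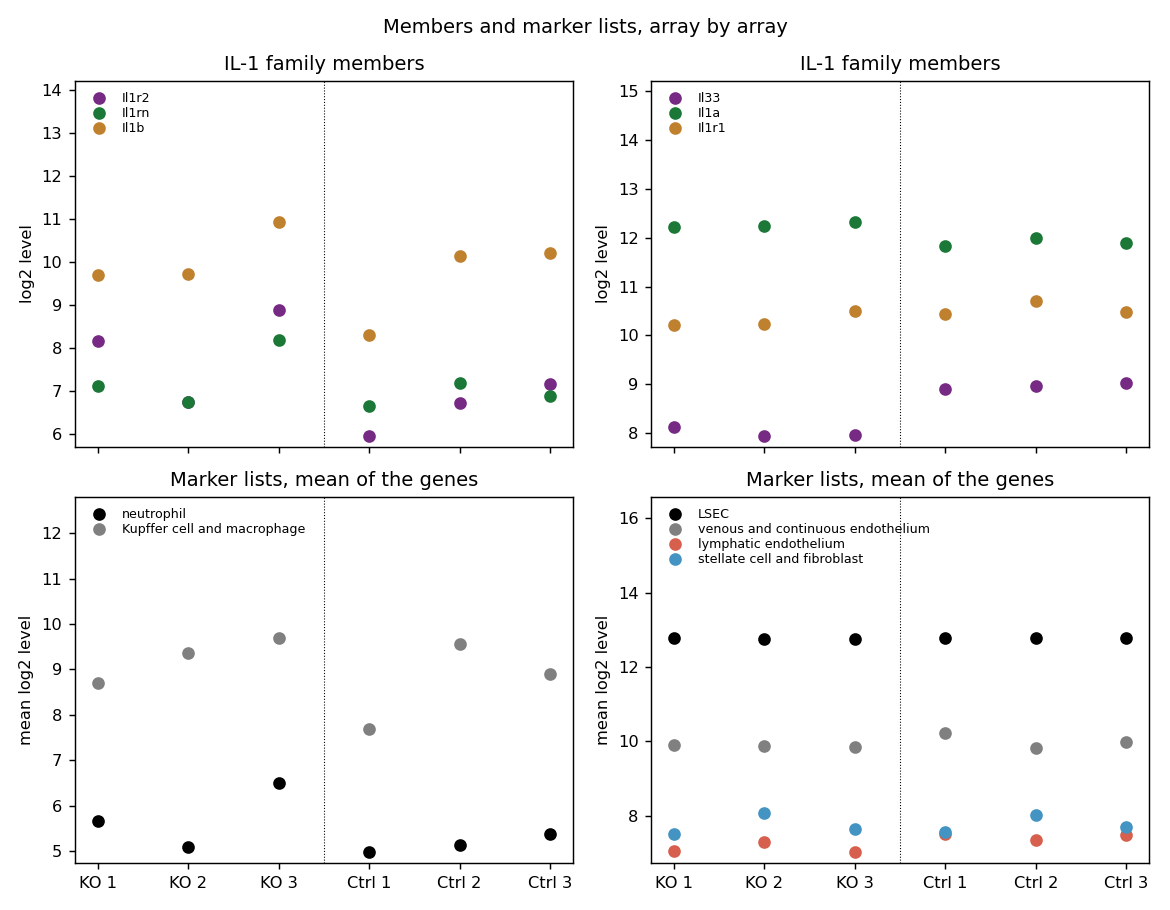
Log2 levels per array (y axes) of 6 members in the upper panels and mean log2 levels of marker lists in the lower panels, with the 3 Lyve-1-KO pools left of the 3 Ctrl pools on the x axis. Il1a, Il1r2, Il1rn and Il1b are highest in the third Lyve-1-KO pool, where the neutrophil list (6.50) and the Kupffer cell list (9.70) also reach their highest values. In the second Lyve-1-KO pool the points of Il1r2 (6.73) and Il1rn (6.74) coincide.

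In the remaining marker lists the groups overlapped, with the exception of the LSEC list. Hepatocyte markers differed by 0.10 (exact permutation p = 0.7, 17 genes), monocyte and dendritic cell markers by -0.07 (exact permutation p = 0.4, 15 genes), and T, NK and B cell markers by -0.04 (exact permutation p = 0.9, 16 genes). Such means held members that differed. In the T, NK and B cell list, 7 genes were above 0 and 9 below, with Ccl5 at 0.71 (SE 0.47) and Ms4a1 at -0.94 (SE 0.36). In the hepatocyte list, 9 were above 0 and 8 below, and Hamp, at 2.40 (SE 0.29), had the highest log2 fold change of all genes. For cholangiocyte markers the difference was -0.19 (exact permutation p = 0.6, 7 genes) and for platelet and megakaryocyte markers -0.24 (exact permutation p = 0.3), where 8 of 9 genes were below 0. The LSEC list differed by -0.03, more than its spread (SD 0.01 in Lyve-1-KO and 0.00 in Ctrl), with an exact permutation p of 0.1.

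Around the members, 88 genes of the pathway were measured. At an unadjusted p under 0.05, 15 of them were higher and 2 lower in Lyve-1-KO, beside 5.87% and 5.33% of all genes. None passed the adjusted p, and the median log2 fold change was 0.08. Without the third Lyve-1-KO pool these counts were 8 higher and 2 lower, beside 1016 higher and 910 lower of the 24479 genes. The other IL-1 family ligands and antagonists (5 genes) lay below the array median in all pools, with the exception of Il1f9 in the third Lyve-1-KO pool, and none had an unadjusted p under 0.05. Il1f9, the ligand now called IL-36γ, had 4.36, 3.70 and 6.18 in Lyve-1-KO and 3.52, 4.09 and 4.31 in Ctrl, again highest in the third Lyve-1-KO pool. None of 6 other receptors of the family had an unadjusted p under 0.05 either. Il18rap, the accessory chain of the Il18 receptor, differed by 0.42 (SE 0.34), and Sigirr, which dampens IL-1 receptor signalling, by -0.08 (SE 0.11).

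Genes of the inflammasomes, the complexes that activate caspase-1, and of ligand processing differed in both directions. Of 25 measured, 13 differences were above 0 and 12 below, with a median of 0.00. By unadjusted p under 0.05, 4 genes were higher and 1 was lower (all genes, 5.87% and 5.33%). Aim2, which senses DNA in the cytosol, had 6.93, 7.03 and 7.09 in Lyve-1-KO and 6.30, 6.51 and 6.55 in Ctrl, a difference of 0.56 (SE 0.09). Casp4, a caspase that binds bacterial lipopolysaccharide, had 10.34, 10.24 and 10.57 in Lyve-1-KO and 10.03, 10.18 and 10.07 in Ctrl, a difference of 0.29 (SE 0.10). Groups of both genes did not overlap. Casp1 itself, the protease that cleaves Il1b and Il18, had levels of 10.13 to 10.19 in Lyve-1-KO and 10.07 to 10.21 in Ctrl and differed by 0.00 (SE 0.06). Nlrp3, the sensor most often linked to Il1b, had 5.74, 5.57 and 7.27 in Lyve-1-KO and 4.93, 5.91 and 5.96 in Ctrl, so its groups overlapped and the third Lyve-1-KO pool was highest. Prtn3 and Ctsg, neutrophil proteases that process IL-1 ligands outside the cell, were below the array median in all pools and differed in opposite directions. Prtn3 had 4.16, 4.31 and 4.24 in Lyve-1-KO and 3.94 to 4.02 in Ctrl, and Ctsg had 3.62, 3.49 and 3.48 in Lyve-1-KO and 3.80, 3.83 and 3.69 in Ctrl. Naip6, a sensor of bacterial flagellin, had 8.05, 7.98 and 8.14 in Lyve-1-KO and 7.73, 7.95 and 7.64 in Ctrl, a difference of 0.28 (SE 0.09).

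Among 23 genes of receptor signalling, 3 were higher and 1 was lower by the same threshold (all genes, 5.87% and 5.33%), and the median was 0.07. Irak2, a kinase of the receptor complex, had 8.55, 8.69 and 8.76 in Lyve-1-KO and 8.43, 8.49 and 8.32 in Ctrl, a difference of 0.25 (SE 0.08). Jun, a subunit of AP-1, had 12.93, 13.07 and 13.02 in Lyve-1-KO and 12.68, 12.79 and 12.91 in Ctrl, a difference of 0.21 (SE 0.08). In neither gene did the groups overlap, while in Tab3, an adaptor of the kinase that activates NF-κB, they did, with 8.30, 8.17 and 8.46 in Lyve-1-KO, 7.96, 8.10 and 8.17 in Ctrl and a difference of 0.23 (SE 0.10). Lower was Ecsit, an adaptor that binds Traf6 and also acts in mitochondria, with 6.89, 7.02 and 6.81 in Lyve-1-KO and 7.24, 7.15 and 7.10 in Ctrl, a difference of -0.26 (SE 0.08). The adaptor Myd88 and the ubiquitin ligase Traf6, which all these receptors use, differed by 0.10 (SE 0.11) and -0.02 (SE 0.06).

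Genes known to respond to IL-1 or Il33 had the highest median of the 5 pathway lists. Of 30 measured, 23 were above 0 and 7 below, and their median difference was 0.24. At an unadjusted p under 0.05, 8 were higher and none was lower (all genes, 5.87% and 5.33%). In 13 of the 30, the third Lyve-1-KO pool was highest and the first Ctrl pool lowest of all 6 pools. The means of the Kupffer cell and of the neutrophil list had these extremes too, as did 4.34% of all genes. The extremes were set by the Kupffer cell list. They put a Lyve-1-KO pool on top and a Ctrl pool at the bottom, which favours genes that are higher in Lyve-1-KO. A share above 4.34% is therefore not read as a link to these cells. Zc3h12a, Nfkbiz, Tnfaip3, Cxcl1, Icam1, Socs3, Ccl2 and Cxcl2 were among the 13, Zc3h12a by narrow margins at both ends. The part of macrophages and neutrophils in these levels was not tested. Many of these genes respond to any signal that activates NF-κB, and the list was written with earlier results of these data known, so it is no independent evidence of a direction. Zc3h12a, an RNase that degrades inflammatory mRNAs, had 7.96, 7.69 and 7.99 in Lyve-1-KO and 7.22, 7.31 and 7.23 in Ctrl, a difference of 0.62 (SE 0.09). Nfkbiz, a nuclear NF-κB cofactor, had 10.34, 10.56 and 10.93 in Lyve-1-KO and 8.97, 9.76 and 10.10 in Ctrl, a difference of 1.00 (SE 0.29). Neither gene's groups overlapped, although Nfkbiz spread over more than 1 log2 unit within Ctrl.

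Further response genes at that threshold were Cxcl1, a chemokine that draws neutrophils, with 8.17, 8.38 and 8.61 in Lyve-1-KO and 7.61, 8.03 and 7.71 in Ctrl, and Nfkbia, the inhibitor that holds NF-κB in the cytosol, with 11.65, 11.83 and 11.76 in Lyve-1-KO and 11.35, 11.49 and 11.48 in Ctrl. Their differences were 0.60 (SE 0.15) and 0.30 (SE 0.07). Icam1, an adhesion molecule for leukocytes, had 10.75, 10.83 and 10.99 in Lyve-1-KO and 10.34, 10.44 and 10.67 in Ctrl, a difference of 0.38 (SE 0.11) with groups that did not overlap. For Icam-1 protein, the paper reported no difference between the groups in stained liver tissue. Tnfaip3, a ubiquitin-editing brake on NF-κB, differed by 0.67 (SE 0.26), Birc3, an inhibitor of apoptosis, by 0.28 (SE 0.08) and the dim chemokine Ccl11 by 0.24 (SE 0.09). The type 2 cytokines that Il33 elicits in lymphoid cells, Il4, Il5 and Il13, had levels below the array median in every pool. Il5 differed by -0.18 (SE 0.09), Il13 by -0.05 (SE 0.08) and Il4 by 0.11 (SE 0.08). Lcn2 and Cxcl2, with differences of 0.99 (SE 0.70) and 1.11 (SE 0.63), had overlapping groups and were highest in the third Lyve-1-KO pool, at 10.99 and 9.99.

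**Figure D4:**
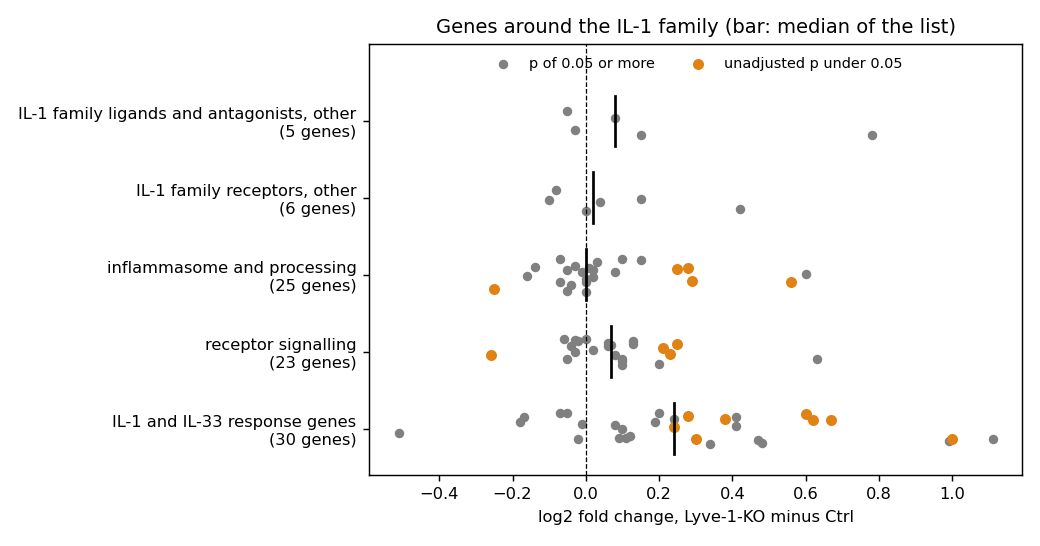
Log2 fold change (Lyve-1-KO minus Ctrl, x axis) of each measured pathway gene in 5 lists, 1 point per gene, with a bar at the median of the list and genes with an unadjusted p under 0.05 in orange. The medians are 0.08, 0.02, 0.00, 0.07 and 0.24 from top to bottom.

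The genes whose pattern over the 6 arrays was most like that of Il33 were ranked by Pearson's r among 1700 genes with 1 symbol, a mean level at or above the array median and a standard deviation of at least 0.25. The closest were Snora34 (r = 0.987), Snora17 (0.978) and Snora52 (0.974), which are small nucleolar RNAs, then Gadd45gip1 (0.974), a mitochondrial ribosome protein, and Galns (0.966), a lysosomal sulfatase. Snora34 had 7.09, 6.97 and 6.79 in Lyve-1-KO and 7.70, 7.77 and 7.76 in Ctrl. The most opposite were Pdk4 (-0.997), a kinase that shuts off pyruvate dehydrogenase, Iqcn (-0.993), Gm3336 (-0.990), Ifi208 (-0.986) and 1700054O19Rik (-0.983). Pdk4 had 11.38, 11.53 and 11.43 in Lyve-1-KO and 10.79, 10.78 and 10.76 in Ctrl. All 10 genes split by group as Il33 did, so these values over 6 arrays mostly restate the group difference. Within the family, r with Il33 was -0.94 for Il1a, 0.64 for Il1r1, -0.62 for Il1r2, -0.44 for Il1rn, -0.41 for Il18bp, -0.39 for Il18, -0.33 for Il1b and 0.02 for Il1rap.

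**Figure D5:**
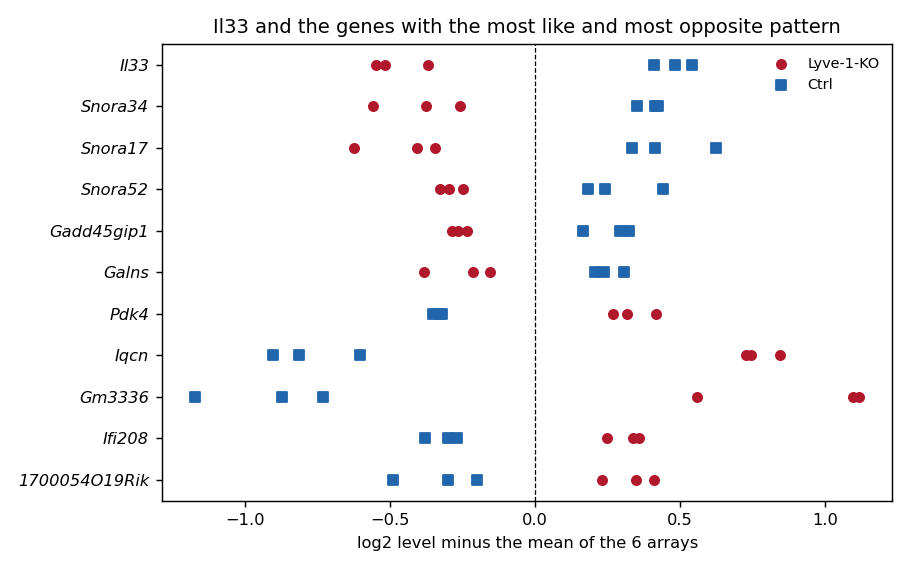
Log2 level per array, relative to the gene's mean over the 6 arrays, of Il33 and of the 5 genes most like it and the 5 most opposite. In all of them the 3 Lyve-1-KO pools lie on the other side of the 3 Ctrl pools, with r from 0.966 to 0.987 and from -0.997 to -0.983.

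The members lie on 6 chromosomes, with Il33 on chromosome 19, Il1a, Il1b and Il1rn on chromosome 2, Il1r1 and Il1r2 on chromosome 1, Il1rap on 16, Il18 on 9 and Il18bp on 7, which is also the chromosome of Lyve1. The measured neighbours of Il33 had differences from -0.28 to 0.13. On one side were Ranbp6 at -0.28 (SE 0.18), 9930021J03Rik at 0.04 (SE 0.10) and Mlana at -0.10 (SE 0.10). On the other were Trpd52l3 at 0.00 (SE 0.07), Uhrf2 at 0.13 (SE 0.06) and Gldc at -0.12 (SE 0.16). Of these, only the groups of Uhrf2 did not overlap. Beside Il1a, Il1b differed by 0.58 and Ckap2l, a protein of the mitotic spindle chosen after its values were seen, by 1.36 (SE 0.31), with 6.29, 6.94 and 7.17 in Lyve-1-KO and 4.89, 5.51 and 5.90 in Ctrl. Beyond Ckap2l, Slc20a1 differed by 0.25 (SE 0.06), and its groups did not overlap. Beyond Il1b, F830045P16Rik differed by 0.06 (SE 0.08).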

How the data were processed

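LSEC RNA of 3 Lyve-1-KO and 3 Ctrl pools was measured on 1 array per pool. Probes were assigned to genes by the authors through Entrez-based custom annotation, followed by quantile normalization, and the deposited values are log2 levels. The submitters' processing notes name RMA without a version. Rank-based normalization hides a shift shared by all genes.

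Of the 24479 rows, 23281 carry 1 gene symbol and 1198 are unnamed here. Groups were compared by limma 3.58.1 under R 4.3.3, using lmFit and eBayes without a filter and with Benjamini-Hochberg adjustment over all genes. The fit was also run on simulated arrays with independent noise for each gene. That setting lacks effects shared by the genes of a pool, so it does not test the fit under them. Marker list means were compared by an exact permutation test (scipy 1.17.1). The depth of reads does not apply, and 3 arrays per group limit the precision.

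The members and lists were chosen with earlier results of these data known. Members are named with all values, as are in each pathway list up to 4 genes with the smallest p, where it was under 0.05. In marker lists only the 4 brightest genes and the 4 with the smallest p could be named, and few of them are. The 5 genes most and the 5 least like Il33 are named. Outside this rule, and chosen after their values were seen, are Casp4, Nfkbiz, Tnfaip3, Birc3, Ccl11, Il1f9, Il18rap, Sigirr, Casp1, Nlrp3, Myd88, Traf6, Il4, Il5, Il13, Lcn2, Cxcl2, the genes named for their highest and lowest pools and the neighbours of members.

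The labels number the pools 1 to 3. Deviations from the group means had correlations over genes of 0.206, 0.134 and 0.124 for equal numbers and of -0.218 to 0.0432 for unequal ones, so the numbers were treated as pairing the pools in an alternative with a replicate block. Further alternatives were repeated quantile normalization, median centring, a filter at the 40th percentile of the mean level, trended and robust variance, array weights, leaving out each array, and the methods' test (per gene, with correction of the false discovery rate).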

Additional observations from a re-analysis of the deposited data

How the results depend on the processing

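The log2 fold changes of Il33 (-0.96) and Il1a (0.35) kept their direction and their side of an unadjusted p of 0.05 under every alternative run. Genes past the adjusted p of 0.05, 1 as reported, numbered 0 with the replicate block, 0 with the methods' test, 49 with trended and robust variance (32 higher and 17 lower, with Il33 and Il1a among them) and 0 to 2 when each array was left out, with 2 without the first Ctrl pool. Pathway genes at an unadjusted p under 0.05, 17 as reported, numbered 10 to 19 when each array was left out, with 10 without the third Lyve-1-KO pool. The cause was not tested. With the replicate block, which takes same-numbered pools as pairs, the interval of Il33 was -1.18 to -0.75, and no member changed its call.

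Il1r2 lost its unadjusted p under 0.05 without the first or the third Lyve-1-KO pool, without the first or the second Ctrl pool, with the filter on dim genes, with trended and robust variance and with the methods' test. Il1r1 came under it (-0.23, 95% interval -0.44 to -0.01) with trended and robust variance and (-0.32) without the third Lyve-1-KO pool. With 3 pools per group the 95% intervals were wide, up to -0.79 to 1.95 for Il1b, so a member without a call is not shown to be unchanged.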
